A study of Rattus norvegicus with 16 samples.

Results

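The genes described here are 6 regulators of endocrine progenitors and of β cell dedifferentiation, Neurog3, Hes1, Aldh1a3, Tfcp2l1, Myc and Rest. They were chosen by name among the 15037 named genes on the array, and each is represented by 1 transcript cluster. RNA came from rat INS1 β cells, a clonal insulinoma line, kept in medium with 11.1 mM glucose. Lentivirus encoding either GFP or Pax5 was added for 24 h at an MOI of 1.25, and RNA was collected at 72 h. The study describes a lentiviral Pax5 vector with the PGK promoter and a human influenza hemagglutinin tag, and also untagged vectors, and the labels do not say which was used here. Both groups were transduced, so the control cells carry lentivirus too. Of the 16 arrays, 8 were GFP and 8 were Pax5, and the sample titles number 8 experiments with 1 array of each group. Untransduced cells were not analysed here.

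In the embryonic pancreas, Neurog3 switches progenitors to the endocrine lineage, and the Notch effector Hes1 represses it in cells that stay progenitors. Mature β cells keep Neurog3, Rest and Aldh1a3 low. In diabetic mice, β cells that lose their identity gain Aldh1a3, and forced Myc makes mouse β cells lose differentiated features. Rest silences neuronal genes through a DNA element called RE1, and β cells share part of the neuronal program that it blocks.

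All levels are log2 signals after RMA, which corrects the background and puts the arrays on a common scale, so a difference of 1 is a 2-fold change. The labelled line was checked against markers. Of 7 measured β cell markers, 3 were higher and 2 lower. The glucose transporter gene Slc2a2 fell by 0.95 and the zinc transporter gene Slc30a8 by 0.40, while the potassium channel genes Kcnj11 and Abcc8 rose by 0.62 and 0.28 and Iapp, which encodes islet amyloid polypeptide, by 0.46 (adjusted p between 1.00e-07 and 0.0139 from limma). Ins1 and Ins2, the rat insulin genes, had median levels of 18.30 and 17.28 in GFP cells and did not pass the test (log2 fold change -0.06 and 0.11, adjusted p = 0.479 and 0.325). Of 26 markers of other islet, acinar, duct, fibroblast, endothelial and immune cells, 13 lay among the dimmest 30% of clusters, 2 rose and 0 fell by limma (6 and 0 at an unadjusted p under 0.05, 2 and 0 by exact sign flips). The markers that rose were Gcg, which encodes glucagon (0.74), and the duct keratin Krt7 (0.35). Their part in the results below was not tested, and in bulk RNA a change in the share of cells and a change of RNA per cell cannot be told apart. The summed log2 level of the 4 islet hormone markers ranged from 32.92 to 33.76 in GFP and from 33.56 to 34.46 in Pax5 arrays, and that of the 4 duct markers from 20.37 to 21.18 and from 20.92 to 21.70. Pax5, the transgene, had log2 values between 7.23 and 8.39 on GFP arrays and between 17.02 and 17.56 on Pax5 arrays.

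Of the 6 regulators, 4 changed with Pax5. Tfcp2l1, Hes1 and Aldh1a3 rose, Myc fell, and Neurog3 and Rest did not pass the test. Changes were tested with limma on the deposited log2 values, with the experiment as a block and Benjamini-Hochberg adjustment over all 23188 clusters, at an adjusted p under 0.05. By that rule 30.7% of all clusters and 32.4% of named genes were called. The GFP and Pax5 arrays did not overlap for the same 4 genes and for 16.7% of all clusters. Since the genes were chosen with results of these arrays known, their count is not read against that background. The gene lists below were chosen the same way, so background shares beside their counts are a description. The 8 arrays of a group are separate experiments by their titles, but the labels do not say whether they were separate passages. The p-values thus rest on the spread among the 8 within-experiment differences, which may be technical. In limma the spread of each cluster is also drawn toward that of all clusters.

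**Figure D1:**
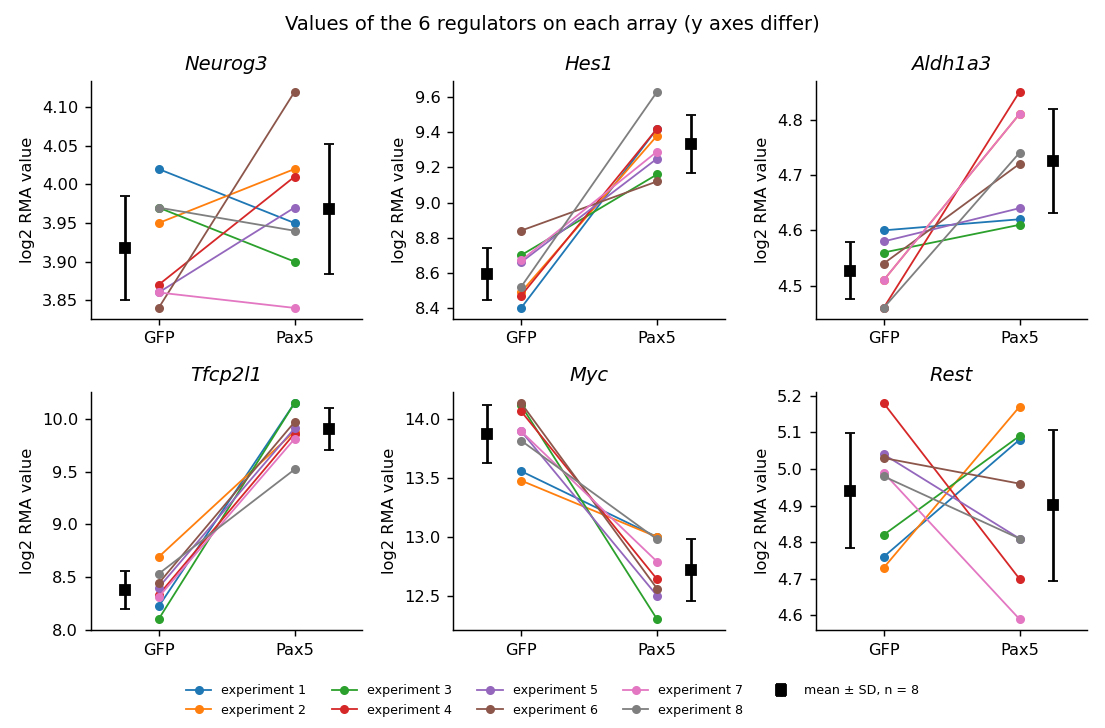
Log2 RMA values of the 6 regulators on each of the 16 arrays, GFP on the left and Pax5 on the right of each panel, with a line for each experiment and squares for the mean ± SD (n = 8). Tfcp2l1, Hes1 and Aldh1a3 are higher on all 8 Pax5 arrays than on any GFP array and Myc is lower, while the groups of Neurog3 and Rest overlap; experiments 2 and 7 coincide for Aldh1a3.

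The arrays of an experiment mirrored each other. The deviations of its GFP and its Pax5 array from their group means correlated between -0.749 and -0.704 across clusters, and for Myc across the 8 experiments this correlation was -0.828. Thus the mean of both Myc values of an experiment stayed between 13.20 and 13.40 (SD 0.0752), while their difference ranged from -1.82 to -0.48 (SD 0.488). The cause was not tested. The SDs of the 2 groups are therefore not those of independent samples, and the differences within experiments carry the comparisons below. A fit without the experiment block ignores the mirrored deviations, so its p-values are too small for clusters that show them.

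Neurog3, the basic helix-loop-helix factor of endocrine progenitors, was at the dim end of the array in both groups. Its log2 values on GFP arrays ran from 3.84 to 4.02 with a median of 3.91, and on Pax5 arrays from 3.84 to 4.12 with a median of 3.96. The groups overlapped, and Pax5 was higher in 4 experiments and lower in 4. The log2 fold change was 0.05 (SE 0.066, 95% interval -0.09 to 0.19, adjusted p = 0.611 from limma). The cluster was among the dimmest 30%, of which 9.49% were called, so a change of Neurog3 may not be detectable here. The gene lies on chromosome 20 (GRCr8, 30622533 to 30624015).

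Hes1, the repressor that carries the Notch signal to Neurog3, rose 1.67-fold. Its log2 values ran from 8.40 to 8.84 (median 8.59) on GFP arrays and from 9.12 to 9.63 (median 9.34) on Pax5 arrays. Every Pax5 array lay above every GFP array. The mean went from 8.59 ± 0.147 to 9.33 ± 0.165 (SD, n = 8 each), a log2 fold change of 0.74 (SE 0.0918, adjusted p = 1.49e-05 from limma). Within experiments the rise was smallest in experiment 6 (0.28) and largest in experiment 8 (1.11). The exact permutation test by sign flips of the 8 differences gave p = 0.00781 (2-sided), the smallest that 8 pairs allow, and an adjusted p of 0.0383 over all clusters. The same p was reached by Aldh1a3, Tfcp2l1 and Myc and by 20.4% of all clusters. Only these clusters passed sign flips after adjustment, 4727 in all, and they are those with the same sign in all 8 experiments. Passing sign flips here and below thus restates that all 8 signs agree, and 1 opposite experiment is enough to fail.

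Hes1 is transcribed from the minus strand of chromosome 11 (84210632 to 84213045, GRCr8). Its promoter is shown because it holds paired TGGGAA elements, the core that the Notch partner Rbpj binds, and CACNAG elements, the N box that Hes factors bind. The 250 bases before the start, at chr11:84213046-84213295 on the minus strand from RefSeq, read as follows, with both elements in capitals on either strand.
Hes1 promoter: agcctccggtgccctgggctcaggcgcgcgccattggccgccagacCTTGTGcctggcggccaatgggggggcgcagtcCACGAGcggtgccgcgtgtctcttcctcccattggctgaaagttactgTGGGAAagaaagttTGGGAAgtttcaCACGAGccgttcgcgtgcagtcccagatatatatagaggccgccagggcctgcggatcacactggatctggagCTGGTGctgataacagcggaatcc
TGGGAA starts at positions -123 and -109 from the transcription start and CACNAG, on either strand, at -204, -171, -97 and -24, with no overlap between them. In windows of 300 bases around the start (250 before, 50 after), searched on both strands, TGGGAA is in 25.1% and CACNAG in 42.8% of 27457 rat promoters. A match is a description of letters and not of binding.

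Genes of the Notch pathway moved in both directions. Of 38 measured, 8 were higher and 5 lower, and the median log2 fold change was 0.07 against 0.00 over all clusters. The 34.2% called is near the 32.4% of named genes, and by exact sign flips 5 were higher and 3 lower. Tle4, a Groucho corepressor, fell by 1.05 on the log2 scale (SE 0.0808), from a GFP range of 11.99 to 12.38 to a Pax5 range of 11.01 to 11.38. Tle1, its relative, rose by 0.66 (SE 0.0847), so the corepressors that Hes proteins recruit did not move together. Psenen, a subunit of the γ-secretase that cuts Notch receptors, rose by 0.48. Their adjusted p from limma lay between 8.61e-08 for Tle4 and 0.000111 for Psenen. Rbpj, the DNA-binding partner of Notch, and its coactivator gene Maml3, both named after their values were seen, rose by 0.44 and 0.47 (adjusted p = 0.000263 and 0.000214 from limma), and each rose in 8 of 8 experiments. None of 4 other effectors named here was called higher. Hes7 fell by 0.38 and the Notch-induced inhibitor gene Nrarp by 0.26 (adjusted p = 0.00087 and 0.0393 from limma). Hey1 (0.16, adjusted p = 0.197) and Hes5 (-0.13, adjusted p = 0.15) did not pass limma. The interval of Hey1 ran from -0.03 to 0.35, so a rise of Hey1 is not excluded. These 4 were also chosen after their values were seen, and Nrarp and Hes5 are among the dimmest 30% of clusters. The fall of Nrarp did not pass exact sign flips (adjusted p = 0.131). Also called higher were the receptor gene Notch1 (0.43), Tle2 (0.44), Adam17 (0.26) and Numbl (0.27). Also called lower were Adam10 (-0.25) and Dtx4 (-0.42). Their adjusted p from limma lay between 0.00027 for Tle2 and 0.0369 for Numbl, and only Tle2 and Adam10 among them passed exact sign flips. All were named after their values were seen, and Tle2 and Dtx4 are among the dimmest 30%.

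Of 13 measured genes that act downstream of Neurog3 in endocrine development, 4 were higher and 6 lower with Pax5 (median -0.12). The share called was 76.9%, beside 32.4% of named genes. Only 2 of the 13 lay among the dimmest 30% of clusters, of which 9.49% were called, so the 2 shares are not like for like. The endocrine and neuronal factor Neurod2 had GFP values from 9.85 to 10.12 and Pax5 values from 8.47 to 9.11, a fall of 1.21 (SE 0.0893, adjusted p = 5.50e-08 from limma). The zinc finger factor St18 fell by 0.73 and the kinase gene Pak3 by 0.75, each in 8 of 8 experiments. Neurod1, a direct Neurog3 target that mature β cells keep, rose by 0.29 (adjusted p = 0.00569). Pax4, a factor of early β cells, rose by 0.41 (adjusted p = 0.000981) and lies among the dimmest 30%; both were picked after their values were seen. A list of 15 measured transcription factors of pancreatic progenitors had 5 higher and 1 lower, with a median of -0.01. Its share called was 40%, beside 32.4% of named genes, and 3 of the 15 lay among the dimmest 30%. Gata4, Sox4 and Foxa1 led it, with log2 rises of 0.80, 0.88 and 0.80 in 8 of 8 experiments each (adjusted p between 1.27e-06 and 5.11e-06 from limma).

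**Figure D2:**
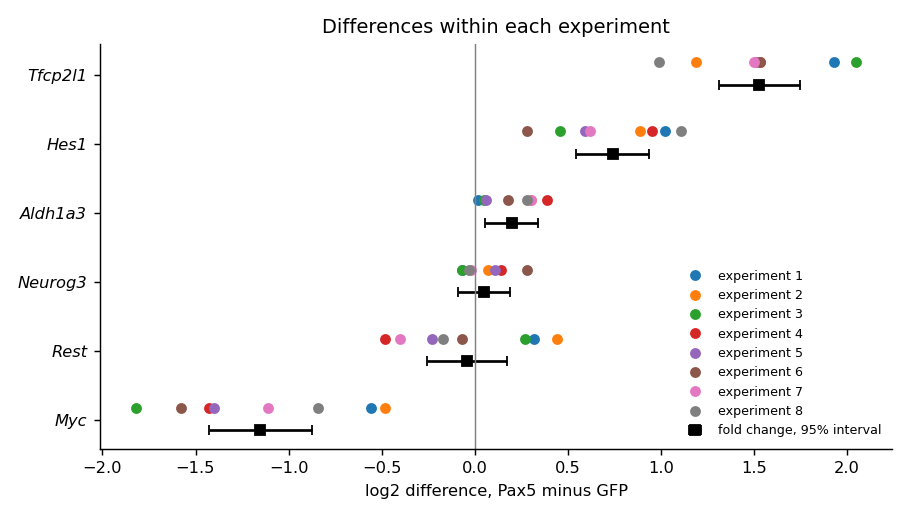
Log2 difference of the Pax5 and the GFP array of each experiment (coloured points) and the fold change with its 95% interval (black squares) for each regulator. All 8 differences lie above 0 for Tfcp2l1, Hes1 and Aldh1a3 and below 0 for Myc, and those of Rest run from -0.48 to 0.44.

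Aldh1a3, which oxidizes retinaldehyde to retinoic acid, rose by a small amount from a low level. GFP arrays ran from 4.46 to 4.60 (median 4.53) and Pax5 arrays from 4.61 to 4.85 (median 4.73). The groups did not overlap, but they were only 0.01 apart at their closest, and in experiments 1, 3 and 5 the difference was 0.02, 0.05 and 0.06. The log2 fold change was 0.20 (SE 0.0679, 95% interval 0.05 to 0.34, adjusted p = 0.0372 from limma), or 1.15-fold. The call was lost when experiment 2 (adjusted p = 0.0841), 4 (0.106), 6 (0.0665), 7 (0.0868) or 8 (0.0764) was left out. The cluster lies among the dimmest 30%. Aldh1a3 is on chromosome 1 (129392516 to 129436552, GRCr8).

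Among genes of retinoic acid synthesis, breakdown and reception, 5 of 22 measured were higher and 3 lower, with a median of 0.00. The 36.4% called is near the 32.4% of named genes. Rara, a retinoic acid receptor, ran from 9.70 to 10.06 on GFP arrays and from 11.42 to 11.71 on Pax5 arrays, a log2 rise of 1.72 (SE 0.0795, adjusted p = 3.69e-10 from limma). Rxra, the retinoid X receptor that pairs with it, went from 9.21 to 9.71 in GFP cells to 7.98 to 8.47 in Pax5 cells, a fall of 1.23 (SE 0.0963, adjusted p = 1.06e-07 from limma). Aldh1a1, a related retinaldehyde dehydrogenase, rose by 0.98 (SE 0.094), from a median of 5.98 to 6.97. For Rara, Rxra and Aldh1a1 all 8 experiments had the same sign and the groups did not overlap. Rarb and Cyp26a1, which retinoic acid induces in many cell types, had log2 fold changes of -0.05 (adjusted p = 0.647) and -0.16 (adjusted p = 0.184, among the dimmest 30%). Both were chosen after their values were seen.

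Tfcp2l1 had the largest rise of the 6 genes. It encodes a CP2 family transcription factor known from naive mouse embryonic stem cells and the kidney collecting duct. GFP arrays ran from 8.10 to 8.69 (median 8.37) and Pax5 arrays from 9.52 to 10.15 (median 9.90), a gap of 0.83 between the groups. The mean went from 8.38 ± 0.183 to 9.91 ± 0.201 (SD, n = 8 each), a log2 fold change of 1.53 (SE 0.101, 95% interval 1.31 to 1.74, adjusted p = 1.81e-08 from limma), or 2.89-fold. Of all clusters, 2.15% were called and at least 2-fold changed. The rise was largest in experiments 3 (2.05) and 1 (1.93) and smallest in experiment 8 (0.99).

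The promoter of Tfcp2l1 is shown as that of the gene with the largest rise. It holds none of the 5 motifs searched (the E box CACGTG, the N box CACNAG, the Rbpj core TGGGAA, the RE1 part TTCAGCACC, and GCNTGAC, a core of Pax5 sites that is in 9.89% of promoters), so no letters are in capitals. No match says only that these letters are not in the window. Of the 5 members with a promoter in the table (Neurog3, Hes1, Aldh1a3, Tfcp2l1 and Rest), GCNTGAC is in that of Rest alone, at -144. The 250 bases before the start of Tfcp2l1, at chr13:32286393-32286642 on the plus strand from RefSeq (GRCr8), are these.
Tfcp2l1 promoter: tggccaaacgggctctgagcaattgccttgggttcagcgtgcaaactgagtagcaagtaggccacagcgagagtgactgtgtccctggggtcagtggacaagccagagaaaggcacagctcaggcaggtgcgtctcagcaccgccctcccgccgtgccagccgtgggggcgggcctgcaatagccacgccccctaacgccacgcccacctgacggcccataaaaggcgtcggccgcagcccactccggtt

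Relatives of Tfcp2l1 did not rise with it. Among 3 measured CP2 and grainyhead family genes, Ubp1 fell by 0.34 (adjusted p = 0.0038 from limma), although not by exact sign flips (adjusted p = 0.0608), while Tfcp2 (-0.19, adjusted p = 0.0603) and Grhl2 (0.12, adjusted p = 0.284) did not pass. None rose by limma, at an unadjusted p under 0.05 or by sign flips. Of 12 measured pluripotency factors, 1 was higher and 1 lower (16.7% called, beside 32.4% of named genes). Among the dimmest 30% of clusters, of which 9.49% were called, lay 9 of the 12. Klf5, a factor of embryonic stem cells and epithelia, rose by 1.02 (SE 0.0727, adjusted p = 3.88e-08 from limma), from a GFP range of 8.24 to 8.57 to a Pax5 range of 9.32 to 9.59. Stat3, which carries leukemia inhibitory factor signals, fell by 0.42. Nanog, Sox2, Klf4 and Pou5f1, the defining factors of pluripotent cells, had log2 fold changes between -0.06 and 0.08, did not pass limma and were named after their values were seen. Each of them lies among the dimmest 30%, so a change may not be detectable here.

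Myc, a growth regulator that raises ribosome production, fell 2.22-fold. GFP arrays ran from 13.48 to 14.14 (median 13.90) and Pax5 arrays from 12.30 to 13.00 (median 12.72). No Pax5 array reached the lowest GFP array. The mean went from 13.87 ± 0.247 to 12.72 ± 0.264 (SD, n = 8 each), a log2 fold change of -1.15 (SE 0.13, 95% interval -1.43 to -0.88, adjusted p = 5.83e-06 from limma). The size of the fall varied more between experiments than any other change among the 6 genes, from -0.48 in experiment 2 and -0.56 in experiment 1 to -1.58 in experiment 6 and -1.82 in experiment 3. The gene lies on chromosome 7 (95483105 to 95488031, GRCr8).

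Partners and rivals of Myc on DNA moved both ways. Of 15 measured genes of the Myc and Max network, 3 were higher and 5 lower (53.3% called, beside 32.4% of named genes). The list holds 0 genes among the dimmest 30% of clusters, of which 9.49% were called, so the 2 shares are not like for like. The median was -0.11. By exact sign flips 3 were higher and 2 lower, and 5 in all were called by limma at an adjusted p under 0.01. Mlxipl, which encodes the glucose-responsive factor ChREBP, rose by 0.83 (SE 0.0798) and its partner gene Mlx by 0.61 (adjusted p = 1.08e-06 and 1.92e-05 from limma), each in 8 of 8 experiments. Ruvbl2, a chromatin remodelling subunit that Myc recruits, fell by 0.63 (adjusted p = 0.000134). Max, the obligate partner of Myc, fell by 0.28 (adjusted p = 0.0275 from limma), although not by exact sign flips (adjusted p = 0.131). The paralogs Mycn and Mycl had values of -0.11 (adjusted p = 0.231) and -0.01 (adjusted p = 0.963). Max, Mycn and Mycl were named after their values were seen.

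Genes that Myc activates in other cells were mostly lower with Pax5. Of 27 measured, 20 fell and 0 rose by limma (20 and 0 at an unadjusted p under 0.05, 14 and 0 by exact sign flips), and the median log2 fold change was -0.38. Over all clusters 16.1% were called lower and 14.6% higher, and the median was 0.00. The list was written with earlier results of these data known. It holds no gene among the dimmest 30% of clusters, of which 9.49% were called. These shares are therefore a description and not a test. Wdr43, Nop58 and Mybbp1a, all factors of ribosome production in the nucleolus, had the lowest p, with falls of 0.78, 0.67 and 0.63 (adjusted p between 3.28e-06 and 1.64e-05 from limma). Wdr43 ran from 13.96 to 14.52 on GFP arrays and from 13.39 to 13.57 on Pax5 arrays. The list holds many genes of ribosome production, and each fall was smaller than that of Myc, with none of the 27 changed 2-fold. In each experiment 20 to 25 of the 27 were lower, and the median difference ran from -0.57 in experiment 4 to -0.15 in experiment 2. In experiment 3, with the largest fall of Myc, it was -0.34.

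Myc and Max bind the E box CACGTG, which reads the same on both strands. It is in 6.65% of all 27457 promoter windows and in 8 of the 22 windows found for the measured Myc targets (36.4%). The list was written as Myc targets, so a share above that of all windows is not a result of these data. Of the 8 genes with the E box, 6 fell (median -0.36), and of the 14 without it 9 fell (median -0.27). Cdk4 and Ldha hold the E box and did not pass limma (0.14 and 0.16, adjusted p = 0.155 and 0.174). Both were called higher without the experiment block, where p-values tend to be too small, and Cdk4 also after quantile normalization. The windows of 40 bases below are shown as sites of 4 targets that fell, with the E box in capitals, and come from RefSeq (GRCr8); all but Mybbp1a, and also Cdk4 and Ldha, were picked after their values were seen.
Mybbp1a, chr10:57555285-57555324, plus strand: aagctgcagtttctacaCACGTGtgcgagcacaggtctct
Srm, chr5:164308812-164308851, plus strand: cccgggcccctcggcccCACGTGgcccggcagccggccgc
Gnl3, chr16:6219785-6219824, minus strand: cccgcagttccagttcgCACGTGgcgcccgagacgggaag
Eif4e, chr2:229740656-229740695, plus strand: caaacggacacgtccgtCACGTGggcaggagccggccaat
Beside these sites, the log2 fold changes were -0.63 for Mybbp1a, -0.88 for the spermidine synthase gene Srm, -0.68 for the nucleolar GTPase gene Gnl3 and -0.34 for the cap-binding factor Eif4e. Each fell in 8 of 8 experiments, with adjusted p from limma between 1.64e-05 and 0.00142.

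**Figure D3:**
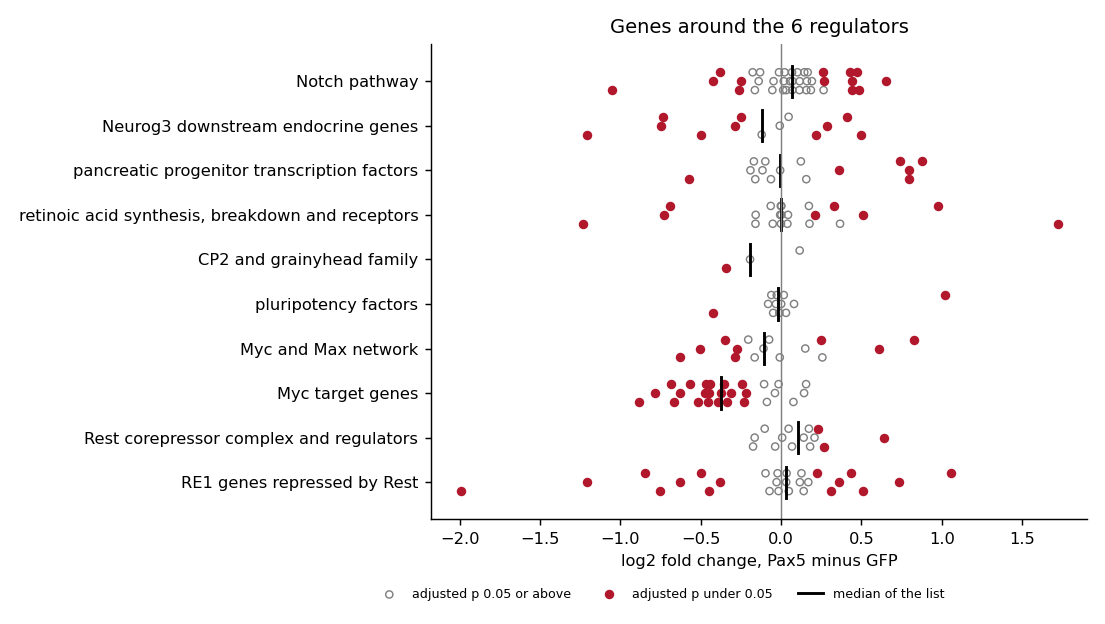
Log2 fold change of each measured gene in the 10 gene lists around the regulators (red, adjusted p under 0.05; open grey, 0.05 or above; black bar, median of the list). The Myc targets lie mostly below 0, with a median of -0.38, while the other lists spread to both sides of 0.

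Rest, the zinc finger repressor of neuronal genes, did not pass the test. GFP arrays ran from 4.73 to 5.18 (median 4.99) and Pax5 arrays from 4.59 to 5.17 (median 4.89), and the groups overlapped. The log2 fold change was -0.04 (SE 0.101, 95% interval -0.26 to 0.18, adjusted p = 0.809 from limma). Pax5 was higher in experiments 1, 2 and 3, by 0.32, 0.44 and 0.27, and lower in the other 5, by up to 0.48 in experiment 4. The sign of the fold change turned without experiment 4 (0.02) or 7 (0.01). The cluster is among the dimmest 30%, and Rest lies on chromosome 14 (31213415 to 31233451, GRCr8).

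Of 14 measured genes of the Rest corepressor complex and its regulators, 3 rose and 0 fell by limma (6 and 0 at an unadjusted p under 0.05, 2 and 0 by exact sign flips). The 21.4% called stands beside 32.4% of named genes and, with 14 genes, is not read as a difference. At an adjusted p under 0.01 only 1 gene of the list was called. Smarca4, the BRG1 remodelling ATPase, rose by 0.64 (SE 0.108, adjusted p = 0.000276 from limma), with overlapping groups of 12.92 to 13.68 and 13.61 to 14.06. The deacetylase gene Hdac1 rose by 0.23 and Rcor3, which encodes a CoREST protein, by 0.27. Rcor3 did not pass exact sign flips (adjusted p = 0.0984). Without the experiment block, where p-values tend to be too small, 7 genes of the list were higher and Ctdsp1 was lower. Ctdsp1, a phosphatase gene with a log2 fold change of -0.17, was named after its values were seen.

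Of 27 measured genes that Rest represses through RE1 in non-neuronal cells, 7 were higher and 8 lower, with a median of 0.03. The share called was 55.6%, beside 32.4% of named genes. Only 1 of the 27 lay among the dimmest 30% of clusters, of which 9.49% were called, so the 2 shares are not like for like. Syt4, which encodes a synaptotagmin of secretory vesicles, ran from 11.68 to 12.81 on GFP arrays and from 10.12 to 10.65 on Pax5 arrays, a fall of 1.99 (SE 0.135, adjusted p = 2.25e-08 from limma). Stmn2, which encodes a microtubule regulator of neurons, went from 15.27 to 15.72 up to 16.43 to 16.64, a rise of 1.06 (SE 0.079, adjusted p = 6.38e-08 from limma). The granule protein gene Ptprn fell by 0.84. Thus changes of 2-fold or more occurred in both directions, in 3 genes of the list, the other being Bdnf, a neurotrophin gene named after its values were seen, which fell by 1.21 (adjusted p = 2.79e-06 from limma). TTCAGCACC, the first part of the RE1 element, was in 3 of the 19 promoter windows found for the list (15.8%) and in 0.379% of all windows. The list was written as RE1 genes, so this excess is not a result of these data.

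The changes of the 6 genes were compared across experiments. Over the 15 pairs of genes, 1 pair had a Pearson correlation of its 8 within-experiment differences at p under 0.05, and none passed after adjustment over the 15 pairs (lowest adjusted p = 0.542 for Pearson and 0.604 for Spearman, exact permutation tests, 2-sided). That pair was Hes1 and Myc, with r = 0.73 (exact permutation p = 0.0463, adjusted p = 0.542) and rho = 0.69 (exact permutation p = 0.0694, adjusted p = 0.604, n = 8). In these 8 experiments Myc tended to fall less where Hes1 rose more, which after adjustment is not read as a relation. The r was 0.71 without experiments 6 and 8, which lay farthest from the median of Hes1. Experiments 1 and 2, farthest from the median of Myc, were kept. Aldh1a3 and Tfcp2l1 had r = -0.67 (exact permutation p = 0.0723, adjusted p = 0.542) and rho = -0.57 (exact permutation p = 0.147, adjusted p = 0.604), and r was -0.22 without experiments 1 and 3, so that value rests on those experiments.

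Over the 16 arrays, the named genes most like Tfcp2l1 were Tbc1d22b, Plcb1 and Tubb4a (Pearson r between 0.987 and 0.990). Those most like Myc were Aimp1, Ppp1r15a and Kics2 (r between 0.989 and 0.990), with log2 fold changes of -0.80, -1.96 and -0.77. Those most like Hes1 were Mthfs, Ypel3 and Rtn4r (r between 0.966 and 0.972), and those most like Aldh1a3 were Engase, Tenm2 and Nptx2 (0.913 to 0.945). For Neurog3 the closest were Or8s5, Zmynd10 and Ces2 (0.789 to 0.843) and for Rest Or2t35, Jkamp and Glipr1 (0.831 to 0.855). These values describe the arrays, which share their experiments and the difference between groups, and the highest of so many correlations is large by selection.

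**Figure D4:**
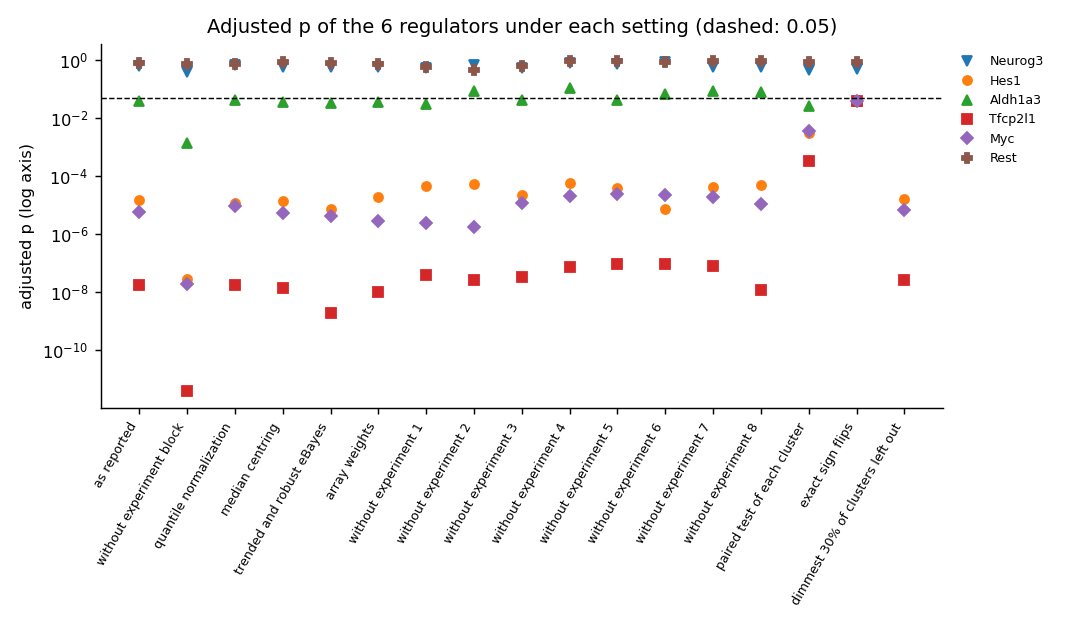
Adjusted p of each regulator (log axis) as reported and under each alternative setting, with a dashed line at 0.05. Hes1, Tfcp2l1 and Myc lie below the line in each setting, Neurog3 and Rest above it, and Aldh1a3 crosses it when experiment 2, 4, 6, 7 or 8 is left out.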

How the data were processed

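Total RNA of INS1 β cells was labelled with biotin and hybridized to 1-colour Affymetrix GeneChip arrays. The deposited values are log2 values per transcript cluster, which the authors made with Transcriptome Analysis Console and RMA (versions not given in the sources used here). Probe background and between-array differences were thus already removed by RMA, and probes were summarised. The values of 23188 clusters were used unfiltered, and array medians lay between 6.98 and 7.01. A platform annotation named 15049 clusters with 1 symbol, none with several, and left 8139 unnamed; for 10 symbols with several clusters the brightest was used.

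The comparison of both groups used lmFit and eBayes of limma 3.58.1 (R 4.3.3), with the experiment number as a block, since the study names a paired test. The pairing comes from the titles; same-numbered arrays deviated in opposite directions, as given above. The fit was tested on simulated data with known changes. There, 200 of 23188 clusters were changed, and 16% of log2 changes of 0.25 and 84% of those of 0.5 were called (50 clusters each). In these data 30.7% of clusters were called. The adjustment thus asked for a smaller p in the simulation, and its rates may not hold for these data. Simulated arrays of an experiment shared a common shift, unlike the opposite deviations here, and the block removes such a shift. Single genes were tested with exact sign flips (256 arrangements), and pairs of genes with exact permutation of 8 experiments. The members and gene lists were chosen with earlier results of these data known. Named beside the 6 members were Pax5, up to 3 genes with the lowest p in each list and the 3 genes most like each member; the β cell markers were named in full, and others are marked in the text. Promoters are from RefSeq (GRCr8). Only RMA values were analysed, which leave dim and saturated spots unmarked, and precision is set by 16 arrays. Alternatives were a fit without the block, other normalizations, a filter on dim clusters, array weights, trended and robust eBayes, other tests and the removal of each experiment.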

Additional observations from a re-analysis of the deposited data

Results flagged for a closer look

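The 52 named genes were screened in each condition for an array that stands apart, which made 104 groups (8 arrays each). With Dixon's ratio at its 95% limit of 0.526, about 5.2 groups would pass by chance, at 1 in 20, and 1 did. It was Mlx in GFP cells, where experiment 1 was lowest at 13.20 and the next array was at 13.42. None of the 6 regulators passed.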

How the results depend on the processing

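Hes1, Tfcp2l1 and Myc kept their direction and their call under quantile normalization, median centring, a fit with no block, removal of the dimmest 30% of clusters, trended and robust eBayes, array weights, the paired t-test that a figure legend of the study names, sign flips and the removal of each experiment. Aldh1a3 lost its call without experiment 2, 4, 6, 7 or 8 (log2 fold change 0.17 to 0.22 over the 8 removals, adjusted p from limma between 0.0309 and 0.106). Rest had values between -0.11 and 0.023 over these removals and turned sign without experiment 4 (0.023) or 7 (0.01), neither passing limma (adjusted p = 0.899 and 0.954). Neurog3 stayed between 0.02 and 0.07. Neurog3, Rest and Aldh1a3 are among the dim clusters, so that filter gave no value for them, and no member has more than 1 cluster, so averaging clusters was not run. Between 6210 and 6798 clusters were called without 1 experiment, 4727 by exact sign flips, 6073 by the paired t-test, and 10584 without the replicate block, which changed no call of the 6 genes. The fit without the block ignores the mirrored deviations within experiments, so its p-values tend to be too small. At an adjusted p under 0.01, 4760 clusters and 3 of the 6 genes were called. Of the counts of the 10 lists under the alternatives, 161 stayed within 1.5 times the reported count, 4 were higher and 5 lower. Of the 27 Myc targets, 14 to 21 were lower in every alternative, and 2 were higher without the block and 1 after quantile normalization.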
